A study of Homo sapiens with 42 samples.

Results

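Transfer RNA (tRNA) genes were examined for open chromatin in 7 human cancer cell lines before and after inhibition of the BAF chromatin remodelling enzymes. All genes of biotype tRNA that the RefSeq GRCh38.p14 annotation places on chromosomes 1 to 22 and X were taken, which gave 429 genes, with 14 further rows on unplaced scaffolds and 22 mitochondrial genes left out. Each gene was extended by 250 bp on both sides, to a median window of 573 bp around a median gene of 73 bp, and a sample was said to have the gene when an interval of its peak list overlapped that window. The same rule was applied to windows of the same width around 15812 protein-coding gene starts. For the series as a whole, 2142261 regions of 500 bp were built around the summits of all lists.

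The study measured chromatin accessibility by ATAC-seq, in which the Tn5 transposase cuts and tags accessible DNA, in 42 samples with 1 deposited peak list each. The lines, all labelled wild type, came from several tissues. A375 is a melanoma line and 92-1 a uveal melanoma line. MV411 is an acute myeloid leukemia line and RD a rhabdomyosarcoma line. DU4475 comes from an invasive breast carcinoma, and 22RV1 and HCT116 come from adenocarcinomas of the prostate and the colorectum. Each line was treated for 4 h with DMSO, the vehicle, or with FHT-1015, which the labels describe as a dual inhibitor of SMARCA4 and SMARCA2, the ATPase subunits of BAF complexes. There were 3 biological replicates in each of the 14 groups. The labels do not say whether these were separate cultures, so p-values measure the spread between these samples.

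The lists differed in length and depth. They held 114291 to 431956 peaks, of which 1412 to 121774 had a −log10 q-value of at least 5 (called strict peaks here). The background pileup recovered from the peaks, a measure of depth, ranged from 0.0341 to 2.79 fragments, and 92-1 stood apart. Its FHT-1015 replicates 2 and 3 had 2037 and 1412 strict peaks, against 14266 to 66350 in its DMSO lists, so results over the lines are also given without 92-1. In the DMSO lists 21 of the 28 marker genes looked up by line had a strict peak at a gene end; in HCT116 this held for 1 of 4 (CDX2), and the intestinal genes VIL1 and CDH17 had no peak in any HCT116 DMSO list.

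Nuclear tRNA genes are transcribed by RNA polymerase III from a promoter inside the gene. TFIIIC binds 2 internal elements, the A box near the 5′ end and the B box near the 3′ end, and brings TFIIIB, which recruits the polymerase. Each amino acid is served by an isotype, a group of tRNAs that can have several anticodons, and many tRNAs are encoded by several gene copies. Active tRNA genes are known to be short, nucleosome-poor sites flanked by nucleosomes.

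The internal promoter could be shown for 14 of the 429 genes, those that lie whole inside a 300-base RefSeq promoter window (GRCh38.p14) of another gene. All 14 held the A-box-like letters TNGNNNA starting at base 8 and the B-box core GTTCNANNC near the 3′ end on 1 strand, which was taken as the strand of the gene. Of 35116 promoter windows, 97.5% held TNGNNNA on either strand, 7.48% held GTTCNANNC, and 1.77% held the first with the second starting 40 to 70 bases further on. The letters do not overlap each other in these genes. These 8 are shown because they include a gene with very strong peaks in its window and a gene lost in 92-1. They also include pairs of copies with the same or nearly the same sequence but peaks in different numbers of lists. Capitals mark the A-box-like letters and then the B-box core.
TRR-ACG2-1 (chr3:45688999-45689071, minus strand): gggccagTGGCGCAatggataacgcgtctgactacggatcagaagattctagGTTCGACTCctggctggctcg
TRH-GTG1-3 (chr1:148281365-148281436, plus strand): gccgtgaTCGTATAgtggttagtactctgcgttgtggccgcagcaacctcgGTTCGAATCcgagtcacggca
TRH-GTG1-9 (chr15:45201151-45201222, plus strand): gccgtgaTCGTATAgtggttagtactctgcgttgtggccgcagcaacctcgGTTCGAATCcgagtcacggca
TRP-TGG3-2 (chr14:20684016-20684087, plus strand): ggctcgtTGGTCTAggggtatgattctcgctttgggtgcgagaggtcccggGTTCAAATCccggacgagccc
TRP-TGG3-5 (chr16:3188094-3188165, plus strand): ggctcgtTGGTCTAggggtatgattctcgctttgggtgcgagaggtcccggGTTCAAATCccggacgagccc
TRN-GTT4-1 (chr1:16889677-16889750, plus strand): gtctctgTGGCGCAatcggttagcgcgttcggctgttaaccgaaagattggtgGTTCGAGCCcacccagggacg
TRN-GTT6-1 (chr1:143735920-143735993, minus strand): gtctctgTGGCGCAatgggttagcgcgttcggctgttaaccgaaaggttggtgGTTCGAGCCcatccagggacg
TRG-CCC2-2 (chr16:636736-636806, minus strand): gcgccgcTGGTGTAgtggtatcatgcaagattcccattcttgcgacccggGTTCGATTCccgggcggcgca

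The 2 histidine genes TRH-GTG1-3 and TRH-GTG1-9 did not differ at any of 72 bases. TRH-GTG1-3 had a peak in 9 of 21 DMSO lists and 3 of 21 FHT-1015 lists, and TRH-GTG1-9 in 13 and 12. TRH-GTG1-9 lies 35 bp from an end of SHF. TRH-GTG1-3 lies 129084 bp from the nearest protein-coding gene end, but inside the promoter window of LINC01731. The proline genes TRP-TGG3-2 and TRP-TGG3-5 were also identical over 72 bases. TRP-TGG3-2, on chromosome 14, had a peak in 18 DMSO and 17 FHT-1015 lists, and TRP-TGG3-5, on chromosome 16, in 10 and 6. These proline genes lie 90 bp from an end of ANG and 39 bp from an end of OR1F1. A peak so near a protein-coding gene end cannot be told apart from one of that gene. The same holds for every printed gene, as each lies inside a promoter window of another gene. The asparagine genes TRN-GTT4-1 and TRN-GTT6-1 differed at 3 of 74 bases and were in 3 and 6 DMSO lists. TRR-ACG2-1, an arginine gene 325 bp from an end of SACM1L, was in 21 DMSO lists and 19 FHT-1015 lists. The 8 printed genes, all with both promoter elements, were in 3 to 21 DMSO lists.

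Across the genome, tRNA genes ran from always open to never called. A peak was present in all 42 lists at 17 genes, in at least 1 list at 391, and in no list at 38. In the 21 DMSO lists, 47 genes were in all, 139 in 11 to 20, 192 in 1 to 10 and 51 in none. Without 92-1, 57 genes were in all 36 lists. The 17 genes of all 42 lists included the initiator methionine genes TRX-CAT1-1 and TRX-CAT1-3, the aspartate genes TRD-GTC1-1 and TRD-GTC2-8, and TRT-AGT1-3, a threonine gene on chromosome 19.

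Of the 5 tRNA genes whose windows held the strongest peaks, 3 were arginine genes. By the median over the DMSO lists of the percentile of −log10 p among all peaks of the list, the 5 highest were TRR-TCG1-1 (98.7), TRR-ACG1-3 (98.5), TRT-AGT1-3 (98.4), TRR-ACG2-1 (98.2) and TRX-CAT1-1 (98.1). Their genes lie 249, 325, 1258, 325 and 257 bp from an end of POLG, PRMT5, WDR88, SACM1L and ILF2. In the same order, the summits in their windows lay a median of 212.5, 216.5, 163, 219.5 and 209 bp from the window centre. These distances reach beyond the ends of the tRNA genes. Of the 429 genes, 55 lie within 1000 bp of a protein-coding gene end, and these had a peak in 81.8% of gene and DMSO list pairs, against 40.6% for the other 374. The median gene of the first kind was in 20 DMSO lists and that of the second in 7. A peak at these 55 genes cannot be told apart from one of the neighbouring gene's start or end.

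Isotypes differed in how many of their genes were open in DMSO. Of 26 arginine genes, 10 were in all 21 DMSO lists and 63.6% of gene and list pairs had a peak. The share was 64.9% for the 8 initiator methionine genes, which decode the start codon, and 62.6% for 20 proline genes. It was lowest at 29 cysteine genes (27.9%) and 21 asparagine genes (28.8%), of which 0 and 1 were in all 21 DMSO lists. Among the 49 anticodon families, the 4 proline genes with anticodon CGG reached 82.1% and the 25 alanine genes with AGC 28.2%. These shares are described without a test, because genes of an isotype share sequence and often lie in 1 cluster.

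Copies of 1 transcript did not share 1 state. Of 35 tRNA transcripts with 3 or more gene copies, 15 had a copy in all 21 DMSO lists and another in 10 or fewer, and the median gap between the highest and the lowest copy was 16 lists. The 8 initiator methionine copies are an example. TRX-CAT1-1 and TRX-CAT1-3 had a peak in 21 DMSO lists each, TRX-CAT1-8 in 17, TRX-CAT1-6 in 16, TRX-CAT1-7 in 15, TRX-CAT1-5 in 11, TRX-CAT1-2 in 6 and TRX-CAT1-4 in 2. With FHT-1015 the same genes were in 21, 21, 15, 16, 12, 12, 7 and 4 lists. Of the selenocysteine genes, which insert the selenium-containing amino acid at recoded stop codons, TRU-TCA1-1 on chromosome 19 was in 20 DMSO and 19 FHT-1015 lists and TRU-TCA2-1, inside PARVB, in 1 and 0.

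Clusters differed as well. A cluster of 32 genes at chr1:161399700-161612029 held 18 of the 38 genes without a peak in any list, among them copies of leucine (TRL-CAG1), glycine (TRG-GCC1 and TRG-TCC2) and aspartate (TRD-GTC2) tRNAs. Whether reads could be placed uniquely on repeated copies was not tested. The 43 genes at chr6:28474552-28989083 had a peak in 43.3% of gene and DMSO list pairs, ranging from 14.7% in DU4475 to 59.7% in 22RV1. The 17 genes at chr5:181097070-181222467 ranged from 21.6% in DU4475 to 90.2% in HCT116. DU4475 had the lowest share of tRNA genes of the 7 lines in DMSO although its recovered background, 1.98 to 2.40 fragments, was the highest.

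In the whole lists no change in the share of tRNA genes with a peak exceeded the spread between replicates. Mean shares in DMSO ranged over the lines from 35.1% to 54.7%, and all 7 pairs of groups overlapped. Over the lines the share moved by −1.35 percentage points with FHT-1015 (within-line permutation test of 100000 draws, two-sided, p = 0.395, higher in 4 of 7 lines). The changes ranged from −14.6 points in 92-1 to 4.27 in A375, and the SD of the 7 changes, 6.22 points, was not larger than permutation within lines gave at 0.05 (one-sided permutation p = 0.12). Without 92-1 the difference was 0.855 points (permutation p = 0.355).

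In 92-1 the DMSO lists had a peak at 49.9%, 49.9% and 42.7% of the 429 genes and the FHT-1015 lists at 47.8%, 25.4% and 25.4%. The 2 low values are those of the shallow replicates 2 and 3, and replicate 1 lay among the DMSO lists. In 22RV1 the shares were 53.1%, 57.1% and 53.8% in DMSO and 55.01%, 55.9% and 56.9% with FHT-1015. In RD they were 44.1%, 42.7% and 42.7% in DMSO and 41.0%, 38.7% and 43.1% with FHT-1015. Both lines showed groups that overlapped.
In A375 the DMSO lists held 49.0%, 51.7% and 49.9% and the FHT-1015 lists 49.4%, 59.4% and 54.5%, so 2 of 3 treated lists lay above every DMSO list. In DU4475 the shares were 35.9%, 35.0% and 34.5% in DMSO and 37.1%, 35.4% and 33.1% with FHT-1015. In HCT116 they were 43.8%, 51.5% and 50.8% in DMSO and 50.1%, 55.01% and 48.5% with FHT-1015. In MV411 they were 43.1%, 40.6% and 41.96% in DMSO and 38.0%, 42.9% and 42.4% with FHT-1015. The exact permutation p of a line ranged from 0.2 to 1 (two-sided), where 0.1 is the smallest that 3 against 3 lists allow.

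**Figure D1:**
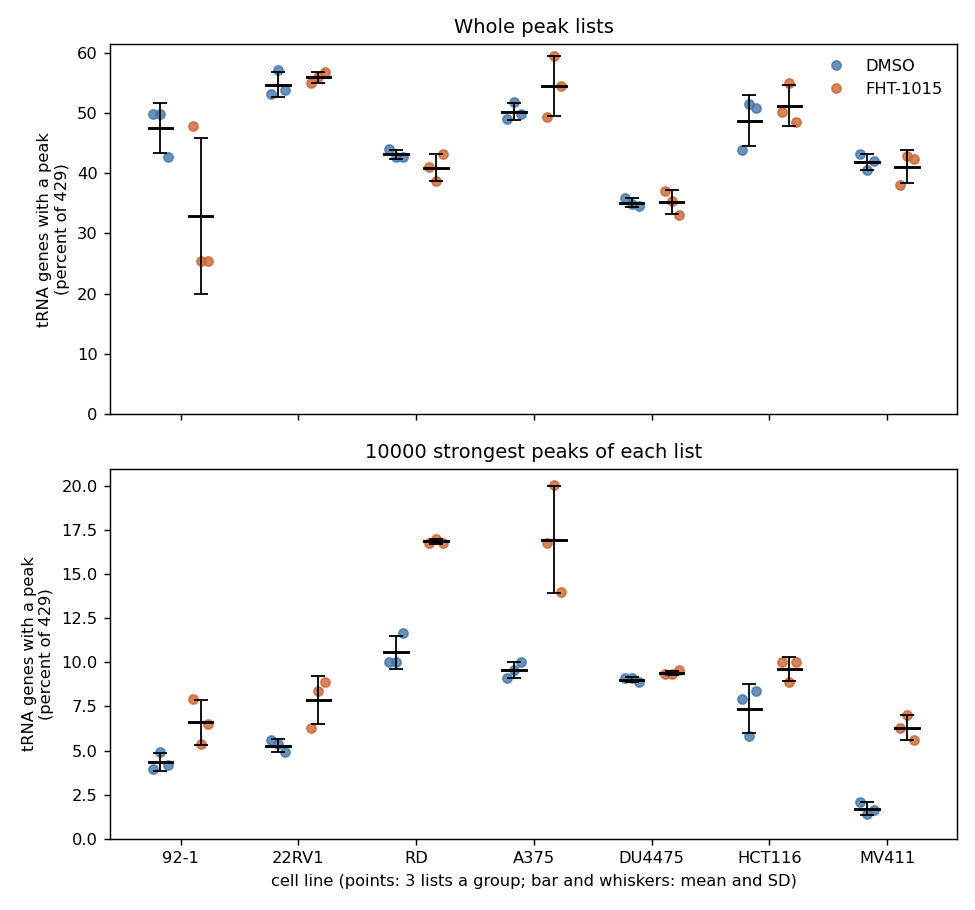
Percent of the 429 tRNA genes with a peak in each list, by cell line, in DMSO (blue) and FHT-1015 (orange); points are lists, and bar and whiskers are mean and SD of 3. In the whole lists (top) the groups overlap in every line, and among the 10000 strongest peaks of each list (bottom) every FHT-1015 list lies above the DMSO lists of its line.

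Protein-coding gene starts of the same width in the same lists gave a second reading. Their share moved by −3.02 points over the lines (permutation p = 0.0548). The tRNA share minus the gene-start share was higher by 1.67 points with FHT-1015 (two-sided permutation p = 0.0178, leaving out each list in turn 1.37 to 2.02 points). This call ended with windows of 1000 bp on both sides (0.968 points, permutation p = 0.17) and when the log2 ratio of the 2 shares replaced their difference (0.014, permutation p = 0.581). Gene starts began from a higher share, 61.8% to 73.2% in DMSO, so equal relative changes give them the larger difference in points.

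Among the 10000 strongest peaks of each list the share of tRNA genes rose over the lines, while at the fixed cut of strict peaks it did not. When each list was reduced to its 10000 strongest peaks by −log10 p, the share of tRNA genes with a peak was higher with FHT-1015 by 3.67 percentage points over the lines (permutation p = 1e-05, the smallest that 100000 draws can give). The FHT-1015 and DMSO lists did not overlap in 7 of 7 lines. In 92-1 the FHT-1015 replicates 2 and 3 had only 2037 and 1412 strict peaks, so most of their 10000 strongest peaks were not strict. Peaks of equal −log10 p were ranked by genome position. The difference was 3.45 to 3.89 points when each list was left out in turn, 3.91 without 92-1, and 2.78 at genes over 1000 bp from a protein-coding gene end (permutation p = 1e-05 for each). With strict peaks the share moved by −0.810 points over the lines (permutation p = 0.681, higher in 2 of 7 lines). The strict share went from 28.4% to 26.1% in MV411 without overlap, and from 29.0% to 38.3% in A375 with overlap.

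In MV411 the DMSO lists held 2.10%, 1.40% and 1.63% of tRNA genes among their 10000 strongest peaks and the FHT-1015 lists 6.29%, 6.99% and 5.59%, so that the treated mean was 368% of the DMSO mean. In A375 the values were 9.09%, 9.56% and 10.02% in DMSO and 16.8%, 20.05% and 13.99% with FHT-1015. In RD they were 10.02%, 10.02% and 11.7% in DMSO and 16.8%, 17.02% and 16.8% with FHT-1015. In these 3 lines the lowest treated list lay well above the highest DMSO list.
In 22RV1 the mean was 5.28% ± 0.356 in DMSO and 7.85% ± 1.37 with FHT-1015 (SD, n = 3), with exact permutation p = 0.1 as in each line. In HCT116 it was 7.38% ± 1.37 in DMSO and 9.63% ± 0.673 with FHT-1015, and in 92-1 4.35% ± 0.485 and 6.60% ± 1.28. In DU4475 the groups were 0.389 points apart, at 9.01% ± 0.135 and 9.40% ± 0.135. Its DMSO lists held 39, 39 and 38 tRNA genes and its FHT-1015 lists 40, 40 and 41.

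Gene starts rose among the 10000 strongest peaks too. Their share was higher by 4.95 points (permutation p = 3e-05, 7 of 7 lines), from 17.9% to 29.98% in MV411 and from 34.5% to 35.2% in DU4475. In points the tRNA genes therefore moved 1.27 less than gene starts (permutation p = 0.205), and on the log2 ratio of the 2 shares 0.45 more (permutation p = 1e-05). In RD the tRNA share was 6.29 points higher with FHT-1015 and that of gene starts 1.58, and in MV411 4.58 and 12.1. The number of strict peaks moved with treatment in MV411, from 105420 to 121774 in DMSO to 52664 to 53585 with FHT-1015, and in 22RV1, RD and DU4475 in the same direction without overlap. Its part in the rise was not tested.

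**Figure D2:**
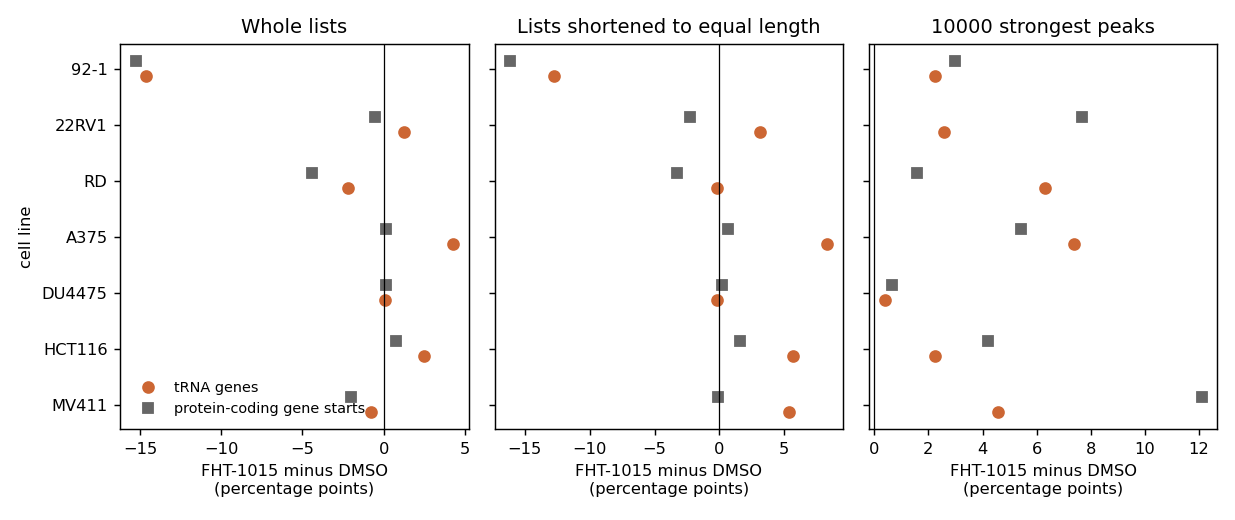
Difference in the percent of windows with a peak, FHT-1015 minus DMSO in percentage points, for tRNA genes (circles) and protein-coding gene starts (squares) in each line, over whole lists, lists shortened to the length of the shortest list, and the 10000 strongest peaks. All 7 lines lie right of 0 in the last panel for both kinds of window, and 92-1 lies far left in the first 2.

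Ranks within a list are given without a test, and a percentile also moves with the number and kind of the other peaks of its list. RD, for example, had 209804 to 242304 peaks in DMSO and 152849 to 204577 with FHT-1015. The median percentile of tRNA peaks by −log10 p was 78.8 to 81.9 in A375 DMSO lists and 89.6 to 90.2 with FHT-1015. It was 61.9 to 73.9 and 78.2 to 84.7 in MV411, and 82.3 to 84.8 and 90.3 to 92.9 in 22RV1. In RD it was 88.4 to 91.1 and 92.3 to 93.5. In these 4 lines the groups did not overlap, while they overlapped in 92-1, DU4475 and HCT116. The median percentile of peaks at gene starts was also higher without overlap in 3 of the 4: 90.8 to 92.6 and 93.0 to 94.4 in A375, 88.4 to 91.4 and 94.4 to 94.7 in MV411, and 93.7 to 95.1 and 96.2 to 97.0 in 22RV1. In RD it overlapped, at 94.0 to 94.7 and 93.2 to 94.7. Fragment pileup was compared at 27 tRNA genes and 5494 gene starts with a summit in all 36 lists outside 92-1. The log2 ratio of the median tRNA pileup to the median gene-start pileup was 0.07 ± 0.02 in A375 DMSO and 0.55 ± 0.35 with FHT-1015 (SD, n = 3), and −0.20 ± 0.03 and 0.06 ± 0.02 in RD, without overlap. In the other 4 lines it overlapped, among them MV411 at −0.65 ± 0.09 and −0.59 ± 0.17.

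The rise was spread over many genes. Of the 161 tRNA genes with one of the 10000 strongest peaks in at least 1 list, 124 were in more FHT-1015 than DMSO lists and 21 in fewer. These are 77.0% and 13.04% of them. For gene starts the numbers were 6035 and 2222 of 9678 (62.4% and 22.96%), and for all 500 bp regions 32854 and 37907 of 80564 (40.8% and 47.1%). In the exact stratified test 14 tRNA genes were more often and 0 less often among the strongest peaks at an unadjusted p under 0.05, 3.26% of the 429. By the same exact test this held for 7.06% and 0.455% of all gene starts and for 0.0904% and 0.0394% of all 500 bp regions. Windows without such a peak in any list could not be called. Of those with 1 or more, 14 of 161 tRNA genes, 1116 of 9678 gene starts and 1936 of 80564 regions were more often called. Less often called were 0, 72 and 845. After Benjamini-Hochberg adjustment over tRNA genes and regions, 0 of either passed in the exact test (lowest adjusted tRNA p = 0.336). An adjustment over so many windows could be passed only by a gene that switched in most lines. The genes given next were chosen after their values were seen. The neighbours TRD-GTC1-1 (aspartate) and TRW-CCA4-1 (tryptophan) on chromosome 12, whose starts lie under 1000 bp apart, went from 3 to 14 and from 3 to 13 lists. In DMSO only the 3 DU4475 lists held them, and all 3 FHT-1015 lists of RD and of A375 did. TRS-CGA1-1 (serine, chromosome 17) went from 2 to 11 lists and TRL-CAG2-2 (leucine, chromosome 16) from 7 to 16. TRG-CCC2-2, printed above, went from 1 to 7, with all 3 treated lists of RD and A375, although it was lost from the whole lists of 92-1. In the whole lists TRD-GTC1-1 was in all 42, so its change was one of rank and not of presence.

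**Figure D3:**
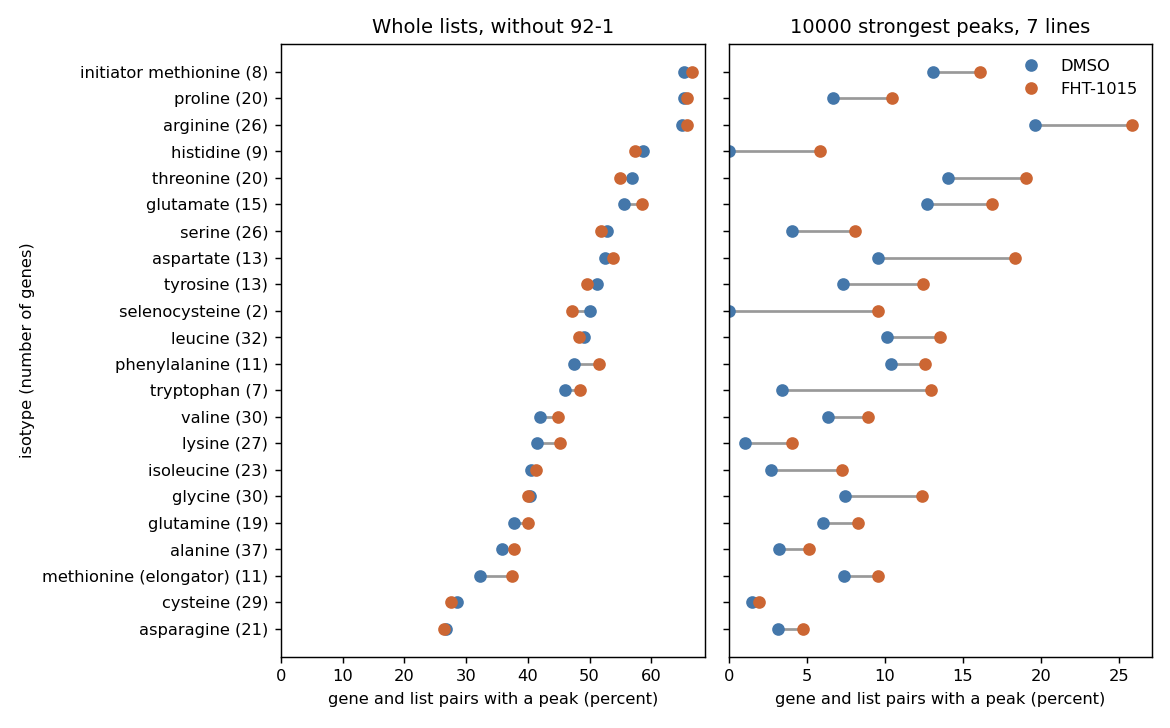
Percent of gene and list pairs with a peak for each of 22 tRNA isotypes (number of genes in brackets), DMSO in blue and FHT-1015 in orange, over the whole lists without 92-1 (left) and the 10000 strongest peaks of all lines (right). Left, the 2 colours lie close together from asparagine to initiator methionine; right, every isotype lies further right with FHT-1015.

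All isotypes were higher among the strongest peaks, and fewer were in the whole lists. Among the 10000 strongest peaks 22 of 22 isotypes had a higher share with FHT-1015, from 19.6% to 25.8% for arginine and from 1.48% to 1.97% for cysteine. For the 9 histidine genes the share was 0% in DMSO and 5.82% with FHT-1015, and for aspartate 9.52% and 18.3%. In the whole lists 5 isotypes were higher, 16 lower and 1 the same, and without 92-1 13 were higher and 9 lower. Of 14 clusters with 6 or more genes, 9 had a higher share among the strongest peaks, 2 a lower and 3 the same. The largest difference was chosen after its value was seen: the 18 genes at chr17:8119155-8227064, a cluster of 11 isotypes, went from 1.06% to 9.79% of gene and list pairs among the strongest peaks, and from 57.1% to 60.8% in the whole lists. The 13 genes at chr6:26286526-26331515 went from 1.10% to 0.366%, and the 13 at chr7:149546540-149707740 from 1.10% to 0%.

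At single genes no change passed adjustment over the lines. In the whole lists 0 of 391 genes with a peak in at least 1 list passed an adjusted p under 0.05 in the exact stratified test (Benjamini-Hochberg over tRNA genes and 500 bp regions together) in either direction, and 0.0% of the regions did. With 3 against 3 lists in a line, only a gene that switched in nearly every list of all 7 lines could have passed. The adjusted result therefore cannot decide about genes that changed in fewer lines. At an unadjusted p under 0.05, 6 genes (1.53%) were in fewer and 2 (0.512%) in more FHT-1015 lists, against 1.04% and 0.223% of the regions. Of the tested genes 187 (47.8%) were in fewer FHT-1015 than DMSO lists, against 46.5% of all regions, and 124 (31.7%) in more, against 36.4% of all regions.

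The serine gene TRS-AGA2-3 and the alanine gene TRA-TGC7-1, both on chromosome 6, were each in 12 DMSO and 3 FHT-1015 lists (exact stratified p = 0.002 and 0.0042, adjusted p = 1 for both). TRS-AGA2-3 was in fewer FHT-1015 than DMSO lists in 6 of 7 lines and in no DU4475 list. The cysteine gene TRC-GCA8-1 was in 10 and 4 lists, the histidine gene TRH-GTG1-3 in 9 and 3, the serine gene TRS-GCT5-1 in 17 and 11 and the cysteine gene TRC-GCA9-4 in 7 and 1. In the other direction the leucine gene TRL-TAG1-1, 197 bp from an end of HES7, was in 6 DMSO and 12 FHT-1015 lists, and TRS-AGA2-1 in 4 and 11. TRS-AGA2-1 and TRS-AGA2-3 are copies of 1 transcript with list counts that differ in opposite directions. Both were chosen for their small p, and neither passed adjustment. Strict peaks were present in 8 DMSO and 3 FHT-1015 lists at TRS-GCT5-1 and in 4 and 1 at TRC-GCA8-1 and at TRH-GTG1-3. They were in 1 and 2 lists at TRS-AGA2-3 and in 0 and 0 at TRS-AGA2-1.
Among the next in order were TRP-CGG2-1 (18 and 14 lists), TRY-ATA1-1 (6 and 1), TRS-GCT3-1 (19 and 14) and TRT-AGT2-2 (13 and 8) on the lower side. On the higher side they were TRA-TGC1-1 (6 and 12), TRS-AGA1-1 (0 and 4), TRN-GTT2-5 (9 and 14), TRG-GCC2-1 (15 and 19), TRR-CCT2-1 (14 and 18), TRK-TTT4-1 (6 and 11), TRQ-TTG3-2 (5 and 10) and TRS-AGA5-1 (1 and 5).

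**Figure D4:**
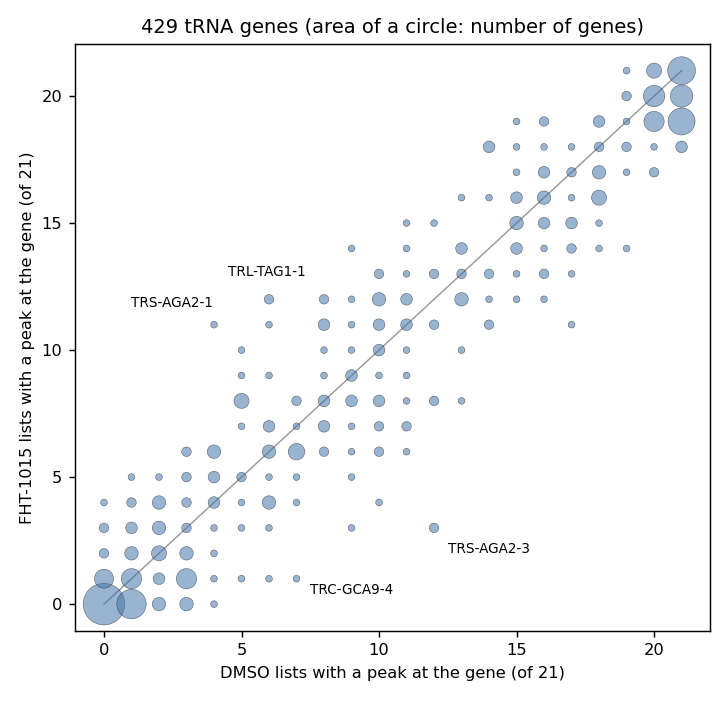
Number of DMSO lists (horizontal, of 21) and FHT-1015 lists (vertical, of 21) with a peak at each of the 429 tRNA genes; the area of a circle gives the number of genes and the line marks equal numbers. Most genes lie near the line, and TRS-AGA2-3 (12 and 3 lists) and TRS-AGA2-1 (4 and 11) lie farther off.

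Few tRNA genes were lost or gained outright within a line. A gene was counted as lost when it had a peak in all 3 DMSO and none of the 3 FHT-1015 lists, and as gained in the reverse case. Summed over the lines, 17 of 1036 tRNA gene and line pairs open in all 3 DMSO lists were lost (1.64%), against 15.6% of all regions and 1.00% of gene starts. Of 971 pairs open in all 3 FHT-1015 lists, 15 were gained (1.54%), against 5.53% of regions and 0.298% of gene starts. No gene was lost or gained in more than 1 line in the same direction.

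Of the 17 losses, 10 were in 92-1 (10 of 118, against 34.5% of regions and 2.86% of gene starts), where the treated lists are shallow; the other 6 lines had 7. 22RV1 lost 1 of 187, the cysteine gene TRC-GCA8-1, against 16.6% of regions and 0.943% of gene starts. RD lost 2 of 155, TRV-AAC1-3 (valine) and TRP-CGG2-1 (proline), against 15.3% and 1.5%. HCT116 lost 3 of 135, TRG-TCC4-1, TRL-CAA2-1 and TRC-GCA9-2, against 6.86% and 0.288%. MV411 lost 1 of 132, TRN-GTT4-1, against 19.6% and 1.12%. A375 and DU4475 lost 0 of 175 and 0 of 134, where 8.75% and 6.24% of regions and 0.467% and 0.164% of gene starts were lost.
Gains were most numerous in A375, at 6 of 197: TRS-AGA2-1, TRR-ACG1-1, TRY-GTA6-1, TRV-CAC2-1, TRM-CAT3-2 and TRR-TCT2-1, against 3.52% of regions and 0.272% of gene starts. 22RV1 gained 4 of 190 (TRA-AGC4-1, TRA-AGC8-2, TRK-CTT5-1 and TRN-GTT2-5; 11.5% and 0.558%). HCT116 gained 4 of 148 (TRL-AAG2-1, TRA-CGC4-1, TRK-TTT3-3 and TRR-CCT2-1; 3.58% and 0.396%). RD gained 1 of 142, TRL-TAA2-1 (5.16% and 0.123%). There were 0 gains in 92-1 of 40 (12.3% and 0.33%), in DU4475 of 126 (4.85% and 0.238%) and in MV411 of 128 (1.97% and 0.169%).

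**Figure D5:**
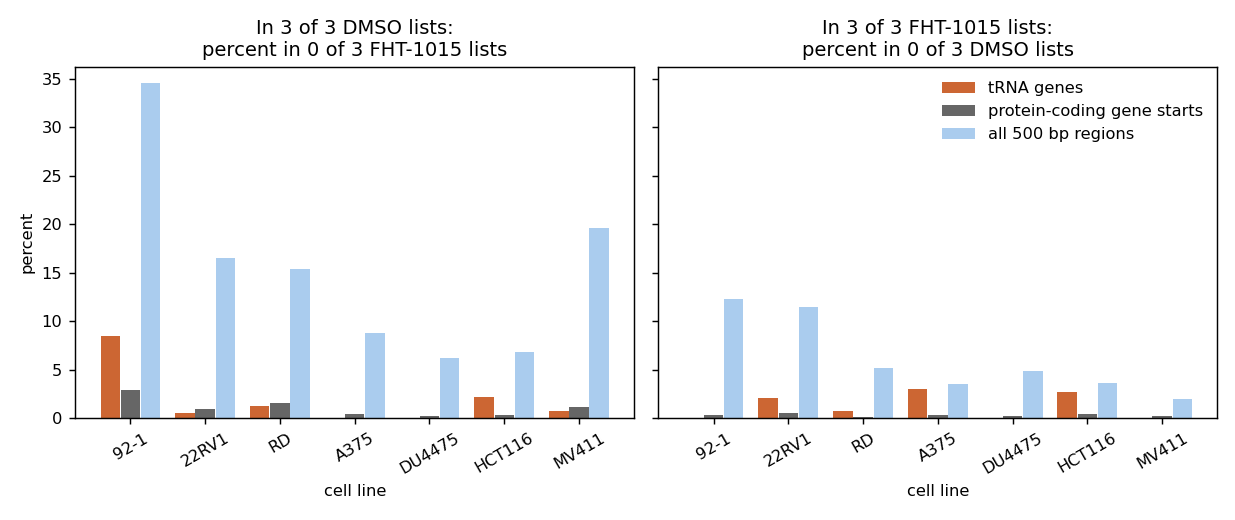
Left, percent of windows open in all 3 DMSO lists of a line that were in none of its FHT-1015 lists; right, the reverse; for tRNA genes, protein-coding gene starts and all 500 bp regions. In these whole lists the bars of tRNA genes are lower than those of all regions in every line and direction.

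Other genes of RNA polymerase III were read from the whole lists by the same rule. Of 37 other transcripts of the polymerase, 20 are not 5S ribosomal RNA genes, and these had a peak in 82.1% of gene and DMSO list pairs and 79.0% with FHT-1015 (84.2% and 83.9% without 92-1). RPPH1 and RMRP, the RNAs of RNase P and RNase MRP, which process precursor tRNA and ribosomal RNA, were in 21 and 21 lists each. So were RN7SL2, a signal recognition particle RNA, and RNY1, a Y RNA. RN7SK, a regulator of transcription elongation, was in 21 and 20. Of the 20 that are not 5S genes, 9 were in fewer, 2 in more and 9 in the same number of lists. Of all regions, each with a peak in at least 1 list, 46.5% were in fewer and 36.4% in more. The vault RNA gene VTRNA1-2 was in 16 DMSO and 10 FHT-1015 lists (exact stratified p = 0.034, unadjusted). It was the only 1 of the 37 under 0.05, where 1.04% of all regions were less often called at that level. Its neighbours VTRNA1-1 and VTRNA1-3 were in 21 and 19 and in 13 and 13. Of 17 copies of the 5S gene, 16 were in no list and RNA5S7 in 1.

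The genes of the transcription machinery had peaks in nearly all lists under both treatments. Windows around either end of 30 genes for subunits of RNA polymerase III, TFIIIA, TFIIIB, TFIIIC, the SNAP complex and the repressor MAF1 had a peak in 96.3% of gene and DMSO list pairs and 93.8% with FHT-1015 (97.0% and 96.9% without 92-1). Of these genes 12 were in fewer, 3 in more and 15 in the same number of lists, where 46.5% of all regions were in fewer and 36.4% in more. Of the 30, 0 had an unadjusted exact stratified p under 0.05. BRF1, a TFIIIB subunit used at tRNA genes, was in 14 and 8 lists (p = 0.0784, exact stratified test). POLR3A, which encodes the largest polymerase subunit, was in 20 and 19, GTF3C1, which encodes a TFIIIC subunit, in 21 and 21, and MAF1 in 21 and 21.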

How the data were processed

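Each of the 42 ATAC-seq samples gave 1 peak list, and lists were not pooled. Per the submitters' processing notes Bowtie2, Picard, MACS2, limma and HOMER were used with build hg38. Their roles, versions and thresholds are not given in the labels or files. The deposited lists give per peak a ratio (fold of pileup over background), −log10 p and −log10 q values and a score; the score was not used. From fold and p the whole-number pileup and the local background were recovered for each peak (all within 1%), and the most frequent background was taken as the depth. Read counts are not in these lists, so no interval on a share can be given from depth.

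Calls were overlaps of list intervals with the windows. Gene starts came from RefSeq promoter windows, which cover 15812 of 19821 protein-coding genes; machinery and marker genes were looked up at either gene end. Shares were tested by permutation within lines, single genes by an exact stratified test, both tested on simulated data. Alternatives were strict peaks (−log10 q of at least 5), q under 0.05, the 10000 strongest peaks, lists shortened to 114291 peaks, peaks thinned within a line to a common background, other flanks and overlaps, subsets of genes and lines, a replicate block, and each list left out.

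Named genes were the 10 with the smallest stratified p in each direction, the 5 with the highest median percentile in DMSO, all selenocysteine and initiator methionine genes and genes lost or gained in 2 or more lines. The members and lists were chosen with earlier results of these data known. Python 3.11.15, NumPy 2.4.6, SciPy 1.17.1, pandas 2.3.3, Numba 0.67.0 and matplotlib 3.10.9 were used.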

Additional observations from a re-analysis of the deposited data

How the results depend on the processing

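The difference in the tRNA share over the lines, −1.35 points, changed sign with the 10000 strongest peaks (3.67, permutation p = 1e-05), lists shortened to the shortest (1.34), thinned peaks (0.324, 6 lines, since 92-1 was too shallow to thin), without 92-1 (0.855) and in the 3 lines without "small" in their peak names (0.725). It also did so in settings chosen after seeing the data: without 92-1 among the 10000 strongest (3.91), strict (0.764) and shortened lists (3.69, permutation p = 0.00172), and at genes over 1000 bp from a coding gene end among the 10000 strongest (2.78). Leaving out each list gave −2.42 to −0.821. The SD between lines passed 0.05 with shortened lists (6.95 points, permutation p = 0.0432). The cause of these changes was not tested.

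The tRNA minus gene-start difference, 1.67 points, was −1.27 with the 10000 strongest peaks (−1.36 without 92-1), 0.968 with 1000 bp flanks and 1.35 in the 4 lines whose peaks carry the word "small" in their names (permutation p = 0.194). As a log2 ratio, chosen after seeing the data, it was 0.014 in the whole lists, −0.00634 with strict peaks and 0.041 without 92-1 (permutation p = 0.0552), and 0.10 with shortened lists, 0.45 with the 10000 strongest and 0.15 with thinned peaks (permutation p = 0.00245, 1e-05 and 0.00619). Leaving out each list gave 1.37 to 2.02 points.

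By line, opposite signs came with strict peaks in 22RV1 (−1.01) and DU4475 (−0.855), with q under 0.05 in DU4475 (−1.09), with the 10000 strongest in 92-1 (2.25), RD (6.29) and MV411 (4.58), with shortened lists in DU4475 (−0.155) and MV411 (5.36), with thinned peaks in 22RV1 (−5.91), DU4475 (−0.389) and MV411 (4.43), without a flank in DU4475 (−1.32), by summit in DU4475 (−0.0777) and MV411 (0.389), and with 100 bp of overlap in DU4475 (−0.311) and MV411 (0.155). Leaving out 1 list gave −0.855 to 1.13 points in DU4475 and −1.67 to 0.777 in MV411, the other lines keeping their sign.

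Genes at an unadjusted p under 0.05 numbered 6 less and 2 more often. They were 0 and 0 with strict peaks, 0 and 14 with the 10000 strongest, 1 and 5 with shortened lists and 1 less often with thinned peaks. More often were 1 with 1000 bp flanks, 1 without MV411 and 5 without 92-1, and 1 to 4 leaving out each list, where less often ranged from 5 to 9. With an adjusted p there were 0 in every setting. Shares of all regions are given above only for the whole lists and the 10000 strongest peaks. The other counts therefore cannot be read as particular to tRNA genes. Losses (17) were 10 with strict peaks, 2 with the 10000 strongest, 9 shortened, 6 thinned and 7 at single-copy transcripts. The 10 strict losses were of 573 pairs (1.75%), against 21.6% of regions and 2.34% of gene starts. The 6 thinned losses were of 419 pairs (1.43%), against 16.7% and 2.64%. Gains (15) were 5 with strict peaks, 5 thinned, 9 with 1000 bp flanks and 8 at single-copy transcripts. The 5 strict gains were of 550 pairs and the 5 thinned gains of 401, with shares given above beside those of regions.

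Replicate numbers showed no strong pairing of the samples over the lines. Of 21 pairs of same-numbered lists 0 had a correlation of deviations over 0.1 (−0.0141 to 0.0815), and 9 of 21 correlated best with their own number. Those 9 included every pair of 92-1 and of DU4475. In 92-1 replicate 1 also had the highest background under both treatments (0.430 fragments in DMSO and 0.299 with FHT-1015). With the replicate block the share moved by −1.35 points (permutation p = 0.45) and the difference to gene starts by 1.67 (permutation p = 0.0168), and 6 genes were less and 1 more often called. The block changed no other call. List length and depth limit these results: in the 2 shallow 92-1 lists a missing peak may lie under the detection limit.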
